A study of Homo sapiens with 6 samples.

Results

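Genes known to be raised in injured or fetal-like gut epithelium were examined after CompE treatment of LS174T, a line from a mucin-rich human colon adenocarcinoma. The 8 genes were EMP1, IL33, CLU, PLAUR, MSLN, TNFRSF12A, AJUBA and AMOTL2. Every probe set that the platform annotation assigns to 1 of these symbols was taken, which gave 21 of the 54674 probe sets, for 8 of the 19775 genes with a probe set of their own. The genes were chosen by their known role and with their log2 differences between CompE and DMSO in these same arrays in view, so that comparison is given for them as a description and not as a test of these genes. Whether a gene passed the threshold of the limma fit over all genes, and the interval of its difference, are recorded as part of that description, and no p-value is given for the 8 genes. Cultures received CompE at 250 nM for 48 h (n = 3) or the vehicle DMSO for 48 h (n = 3), and each culture was measured on 1 Affymetrix Human U133 Plus 2.0 array. The labels give only the short name CompE, which is commonly used for Compound E. That compound blocks gamma-secretase, which cuts Notch receptors so that their inner part can reach the nucleus. All cultures were of 1 cell line and carried no genetic change named in the labels. The series as a whole concerns T cell leukaemia, and these arrays hold the colon line only.

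After injury, the gut epithelium of mice passes through a repair state in which genes of the fetal intestine are expressed again and the genes of crypt base stem cells are lowered. The co-activators YAP and TAZ, which the Hippo kinases keep out of the nucleus, act through TEAD factors and often beside AP-1 in this state. EMP1, a tetraspan membrane protein of the PMP22 family, marks colorectal tumour cells that seed relapse in mouse models. CLU, the secreted chaperone clusterin, marks revival stem cells in the mouse intestine, and IL33 is an alarmin cytokine of epithelial nuclei. PLAUR, MSLN and TNFRSF12A are surface proteins, and AJUBA and AMOTL2 are adaptors of the Hippo pathway.

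RefSeq promoter windows (GRCh38.p14) were found for 5 of the 8 genes, with 8 annotated starts between them. The 250 bases before each start were searched on both strands for TGGGAA (the core of the RBPJ motif, the DNA-binding partner of Notch), GGAATG (TEAD) and TGANTCA (AP-1). The windows of EMP1 and IL33 are shown because these genes had the largest differences between the groups, and the other windows because they hold a match. Capitals mark the matches, and no 2 matches overlap.
EMP1, chr12:13196476-13196725, plus strand: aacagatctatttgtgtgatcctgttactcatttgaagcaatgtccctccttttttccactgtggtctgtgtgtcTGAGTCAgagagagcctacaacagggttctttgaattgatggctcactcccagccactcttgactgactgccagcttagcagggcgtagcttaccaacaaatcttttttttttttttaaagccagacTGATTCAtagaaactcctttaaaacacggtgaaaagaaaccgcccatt
IL33, first start, chr9:6214899-6215148, plus strand: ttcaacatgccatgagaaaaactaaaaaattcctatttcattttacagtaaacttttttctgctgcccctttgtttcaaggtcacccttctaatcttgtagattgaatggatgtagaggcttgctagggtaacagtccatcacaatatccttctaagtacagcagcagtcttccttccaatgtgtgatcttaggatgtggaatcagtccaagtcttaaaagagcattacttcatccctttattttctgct
IL33, second start, chr9:6215557-6215806, plus strand: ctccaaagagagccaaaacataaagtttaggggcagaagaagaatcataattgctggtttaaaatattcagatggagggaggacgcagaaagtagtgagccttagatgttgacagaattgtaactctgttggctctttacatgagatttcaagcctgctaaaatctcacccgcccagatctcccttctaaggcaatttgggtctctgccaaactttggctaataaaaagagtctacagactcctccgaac
PLAUR, chr19:43670170-43670419, minus strand: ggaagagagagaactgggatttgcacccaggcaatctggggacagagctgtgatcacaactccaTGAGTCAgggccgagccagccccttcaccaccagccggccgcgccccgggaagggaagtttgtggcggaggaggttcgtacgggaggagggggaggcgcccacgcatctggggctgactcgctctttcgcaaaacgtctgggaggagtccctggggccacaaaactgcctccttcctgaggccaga
AJUBA, second start, chr14:22976843-22977092, minus strand: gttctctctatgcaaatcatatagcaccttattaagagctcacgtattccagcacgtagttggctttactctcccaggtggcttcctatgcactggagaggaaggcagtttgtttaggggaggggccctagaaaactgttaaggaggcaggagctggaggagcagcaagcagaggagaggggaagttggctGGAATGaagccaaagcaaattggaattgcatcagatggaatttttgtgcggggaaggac
AMOTL2, second start, chr3:134374448-134374697, minus strand: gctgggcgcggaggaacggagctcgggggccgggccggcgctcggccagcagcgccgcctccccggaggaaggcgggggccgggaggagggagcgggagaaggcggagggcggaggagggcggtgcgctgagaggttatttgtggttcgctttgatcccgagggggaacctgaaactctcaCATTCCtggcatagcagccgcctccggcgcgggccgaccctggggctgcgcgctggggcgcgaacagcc
EMP1 had 2 AP-1 matches, which begin 175 and 48 bases before the start, and PLAUR had 1, which begins 186 bases before it. The same letters occur in 6.57% of the 35116 windows of this length. AJUBA and AMOTL2 each had 1 TEAD match, at the second of their 2 starts, 59 and 69 bases before it. TEAD letters occur in 11.9% of all windows, and RBPJ letters, which no window of these genes holds, in 20.8%. A match is a description of letters and not evidence of binding.

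After the authors evened out the arrays in dChip, median intensities were 37.9 to 38.4 with CompE and 36.9 to 38.6 with DMSO. The 18 hybridisation control probe sets did not have the same level in both groups. Their mean log2 value was 11.69 to 11.83 on the CompE arrays and 11.61 to 11.63 on the DMSO arrays, a difference of 0.14. Centring on these controls is among the alternatives given below. HES1, a repressor that Notch induces, averaged 289 ± 29.2 with CompE and 811 ± 58.2 with DMSO (SD, n = 3 each; limma adjusted p = 0.00198). ATOH1, the secretory lineage factor that HES1 represses, averaged 574 ± 53.7 with CompE and 94.1 ± 13.2 with DMSO (adjusted p = 0.000892). All 12 colon epithelium markers, among them EPCAM and VIL1, were above background on every array, and 3 of them passed the threshold. MUC2, the main goblet cell mucin, was 2.07-fold higher with CompE (limma adjusted p = 0.00164), and the intestinal factor CDX2 was 1.35-fold higher (adjusted p = 0.00873). The cadherin gene CDH17 was 1.24-fold lower (adjusted p = 0.0229). The part of these marker changes in the results below was not tested. Markers of fibroblasts (4 of 8), leukocytes (4 of 6), endothelium (3 of 6) and mesothelium (3 of 6) lay at or below background on every array, including PTPRC, CDH5, PDGFRA and PDGFRB. The others exceeded it on at least 1 array, and COL1A1, PECAM1, LYZ, CALB2 and WT1 did so on all 6. COL1A1, a fibroblast marker, averaged 99.2 ± 16.3 with CompE and 96.0 ± 9.18 with DMSO. Its probe set and that of DCN, another fibroblast marker, have names that mark possible cross-hybridisation. PECAM1, an endothelial marker, averaged 159 ± 14.2 with CompE and 165 ± 25.8 with DMSO. DCN, LUM, COL1A2, CD14, TEK, VWF and UPK3B exceeded it on some arrays only. The summed intensity of the 6 leukocyte markers was 1240 to 1494 with CompE and 1601 to 1902 with DMSO, most of it LYZ, the lysozyme gene that Paneth cells also express. That of the 6 mesothelium markers was 727 to 802 with CompE and 838 to 933 with DMSO. Their part in the results below was not tested. Background here is an intensity of 45.7, the 95th percentile of 27 probe sets for Bacillus transcripts. As a measure of RNA integrity, the signal of ACTB near its 3' end was divided by that near its 5' end. This ratio was 1.51 ± 0.0193 with CompE and 1.44 ± 0.0201 with DMSO (exact two-sided permutation p = 0.1, the smallest that 3 against 3 allows). The same ratio for GAPDH was 0.946 ± 0.0264 with CompE and 0.968 ± 0.0106 with DMSO (exact two-sided permutation p = 0.3). Their part in the results below was not tested.

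Of the 3 EMP1 probe sets that passed the filter on dim probe sets, 2 were called lower with CompE, and their groups did not overlap. Over all probe sets tested, the groups did not overlap with CompE lower for 13.1%. The 3 EMP1 probe sets under the filter did not overlap either, but lay at or below background on all 6 arrays. The brightest EMP1 probe set was 3.45-fold lower. That probe set, 201324_at, read 50.5, 51.0 and 43.4 on the CompE arrays and 197, 154 and 151 on the DMSO arrays. The CompE values lay around background (1 of 3 at or below it), whereas all DMSO values lay well above it. The log2 difference was -1.79 ± 0.13 (SE), the fourth lowest of the 14308 genes tested.

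The probe set 201325_s_at, annotated to the same RefSeq transcript, read 22.9, 16.6 and 21.6 with CompE and 90.8, 67.3 and 79.3 with DMSO. All CompE values lay below background and all DMSO values above it, so that its change is given as at least 1.72-fold lower (measured log2 difference -1.96 ± 0.16 SE). 1564796_at, annotated to a separate cDNA clone, stood apart. It read 65.7, 45.3 and 78.2 with CompE and 61.4, 83.6 and 61.3 with DMSO, and its groups overlapped (log2 difference -0.15 ± 0.23 SE).

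The remaining EMP1 probe sets were at or below background on all 6 arrays and under the filter on dim probe sets. 229011_at averaged 17.9 ± 3.30 with CompE and 29.1 ± 3.44 with DMSO. 213895_at averaged 5.97 ± 4.93 with CompE and 14.7 ± 3.45 with DMSO, and 234233_s_at averaged 4.69 ± 0.666 with CompE and 11.2 ± 4.96 with DMSO (SD, n = 3 each). No fold is given for these 3, although their groups did not overlap either. Levels of different probe sets cannot be set against each other, because each binds with its own strength.

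**Figure D1:**
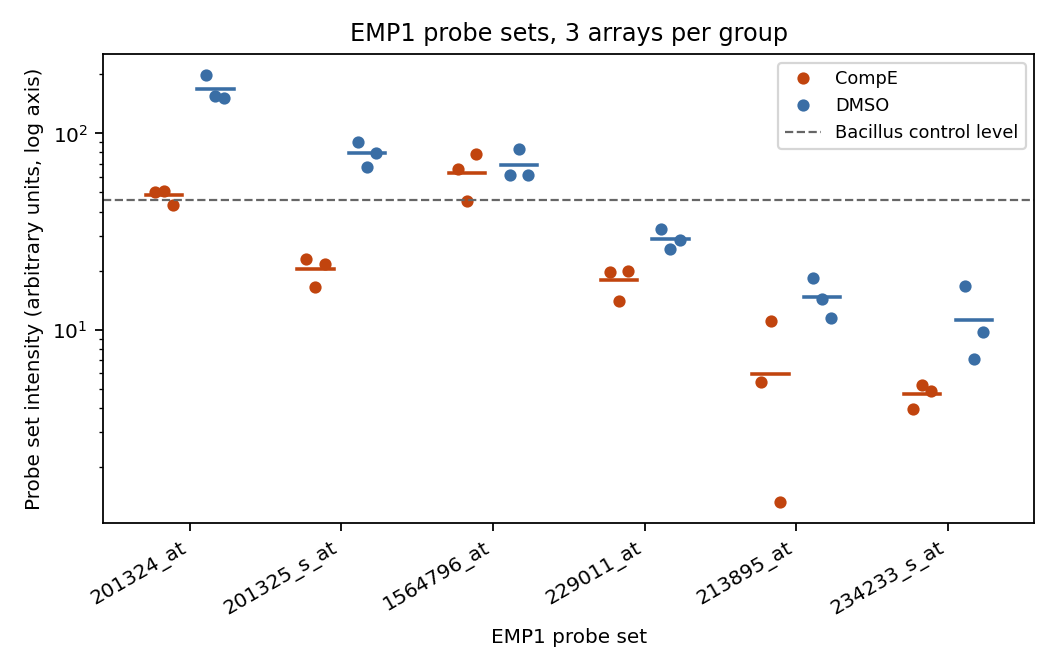
Intensities of the 6 EMP1 probe sets on the 3 CompE arrays (left of each pair) and the 3 DMSO arrays (right), on a log axis; short lines are means and the dashed line is the Bacillus control level of 45.7. The groups separate on every probe set but 1564796_at, and 3 probe sets lie wholly below the dashed line.

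IL33, the alarmin, was bright in both groups and 2.79-fold lower with CompE. It read 469, 399 and 503 on the CompE arrays and 1174, 1399.7 and 1238 on the DMSO arrays. The groups were far apart, and all 6 values lay far above background. The log2 difference was -1.48 ± 0.11 (SE), the 11th lowest of 14308 genes. Its receptor chain genes were measured too: IL1RL1, which binds IL-33, averaged 50.1 ± 3.95 with CompE and 54.1 ± 13.8 with DMSO, close to background (adjusted p = 0.815). IL1RAP, the shared accessory chain, averaged 154 ± 18.1 with CompE and 184 ± 27.5 with DMSO (adjusted p = 0.338). In bulk RNA, fewer cells expressing a gene and less RNA per cell cannot be told apart.

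TNFRSF12A, the receptor of the cytokine TWEAK (also called Fn14), differed less but with little spread. Its single probe set read 290.5, 265 and 272 with CompE and 373, 379 and 342 with DMSO. The lowest DMSO value was above the highest CompE value. The log2 difference was -0.40 ± 0.07 (SE, 1.32-fold lower). It passed the threshold of the fit over all genes, but no longer did so when any 1 of the 6 arrays was left out.

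PLAUR, the receptor of urokinase, which localizes plasmin formation to the cell surface, gave no single picture. Its brightest probe set read 178, 165 and 130.3 with CompE and 179, 164 and 169 with DMSO, with overlap and a log2 difference of -0.12 ± 0.12 (SE). 211924_s_at read 116, 113 and 107 with CompE and 106, 115 and 108 with DMSO, with overlap again. 214866_at read 22.8, 35.3 and 26.0 with CompE and 46.8, 38.6 and 40.4 with DMSO. These last groups did not overlap, but 5 of the 6 values lay at or below background.

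MSLN encodes mesothelin, a surface protein held by a lipid anchor. It read 151, 184 and 160.1 with CompE and 258, 186 and 223 with DMSO. The groups came close without overlapping, since CompE replicate 2 and DMSO replicate 2 were nearly level. The log2 difference was -0.42 ± 0.14 (SE), of nearly the same size as that of TNFRSF12A but with a larger standard error, and did not pass the threshold. MUC16, which encodes the mucin that mesothelin binds, lay below background on all 6 arrays. Of the other mesothelium markers, CALB2, the gene of calretinin (named after its values were seen), averaged 116 ± 16.6 with CompE and 224 ± 25.6 with DMSO (log2 difference -0.95 ± 0.13 SE, adjusted p = 0.0156). The call of CALB2 ended without CompE replicate 1 or 3 and without DMSO replicate 2 or 3 (highest adjusted p 0.0709). WT1 averaged 556 ± 12.3 with CompE and 585 ± 57.4 with DMSO (adjusted p = 0.638).

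CLU, the secreted chaperone, was dim and its probe sets disagreed in sign. The brightest, 222043_at, read 76.9, 68.6 and 68.4 with CompE and 79.6, 79.0 and 82.9 with DMSO. Its groups did not overlap, and the log2 difference was -0.18 ± 0.07 (SE). 208791_at read 64.6, 80.2 and 81.2 with CompE and 69.6, 74.4 and 58.9 with DMSO, a log2 difference of 0.15 ± 0.13 (SE) with overlapping groups. 208792_s_at lay on both sides of background, and 1559228_at was below it on all 6 arrays. No CLU probe set passed the threshold.

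AJUBA, a LIM-domain adaptor that binds the Hippo kinases LATS1 and LATS2, was far above background and nearly level between the groups. Its probe set 225806_at read 985, 958 and 924 with CompE and 949, 964 and 913 with DMSO. The log2 difference was 0.02 ± 0.05 (SE). On 1553764_a_at the values were 900.4, 879.7 and 900.5 with CompE and 844, 859 and 836 with DMSO. There the groups did not overlap and CompE was higher by 0.08 log2 units, which did not pass the threshold. 225807_at overlapped, and 243446_at was below background on all 6 arrays.

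AMOTL2, an angiomotin-family protein that holds YAP in the cytoplasm and is itself a YAP target, read 120.1, 105 and 119 with CompE. The DMSO values were 123, 135 and 139. The groups did not overlap, although CompE replicate 1 and DMSO replicate 1 were nearly level. The log2 difference was -0.21 ± 0.08 (SE) and did not pass the threshold.

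**Figure D2:**
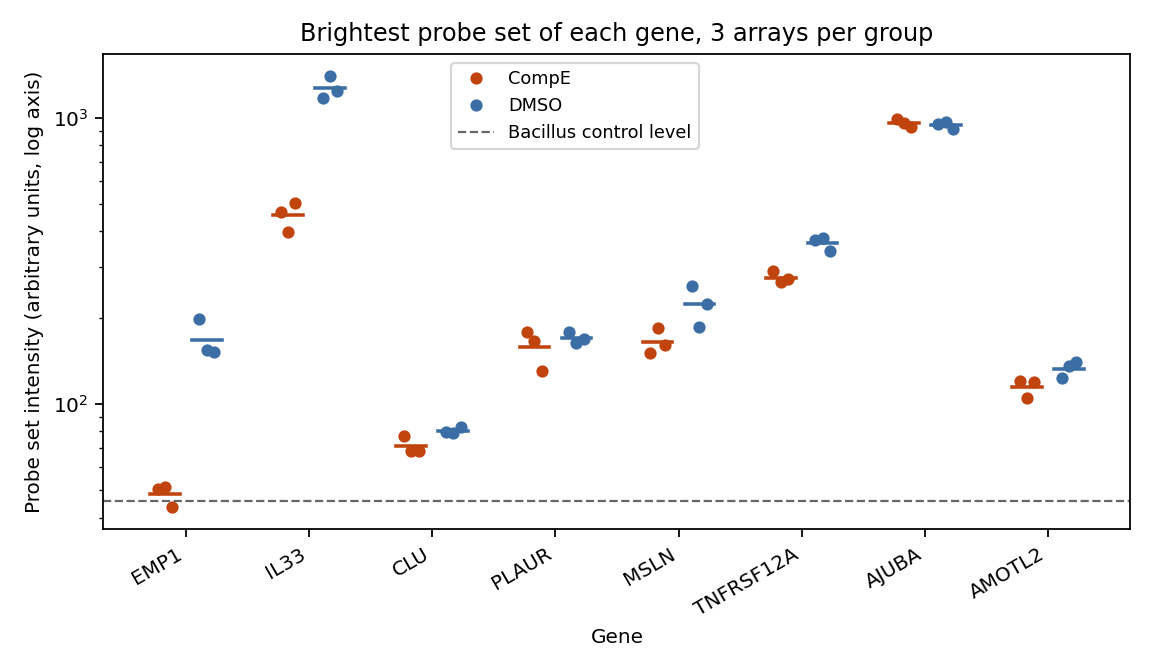
Intensity of the brightest probe set of each gene on the 3 CompE arrays (left of each pair) and the 3 DMSO arrays (right), on a log axis; short lines are means and the dashed line is the Bacillus control level of 45.7. EMP1 and IL33 show a wide gap, TNFRSF12A a narrow one, and PLAUR and AJUBA overlap.

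Counted over genes, 3 of the 8 were lower past the threshold (EMP1, IL33 and TNFRSF12A), 0 were higher and 5 did not pass. Of all 14308 genes, 2.57% were called lower, 4.56% higher and 7.14% in either direction. At an unadjusted p under 0.05, 6 of the 8 were lower and 0 higher, beside 9.55% of all genes lower and 15.0% higher. The groups did not overlap, with CompE lower, for 6 of the 8 genes, against 13.0% of all genes. Nothing is read from these counts against the shares, because the 8 genes were chosen with this comparison known. The median log2 difference of the 8 genes was -0.31, beside 0.02 over all genes tested.

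Over probe sets, 17 of the 21 passed the filter on dim probe sets, and 4 of these were called lower, 0 higher and 13 neither. All 4 belonged to EMP1, IL33 and TNFRSF12A, beside 1.55% of 26962 probe sets called lower and 2.72% called higher. Of the 17, 8 had non-overlapping groups with CompE lower, 1 with CompE higher, and 8 overlapped. The count of 11 lower over all 21 includes 3 EMP1 probe sets that were wholly below background. Over the 26962 probe sets tested, the groups did not overlap with CompE lower for 13.1% and with CompE higher for 16.6%. Both CLU and PLAUR had probe sets on either side of 0, and so did AJUBA.

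**Figure D3:**
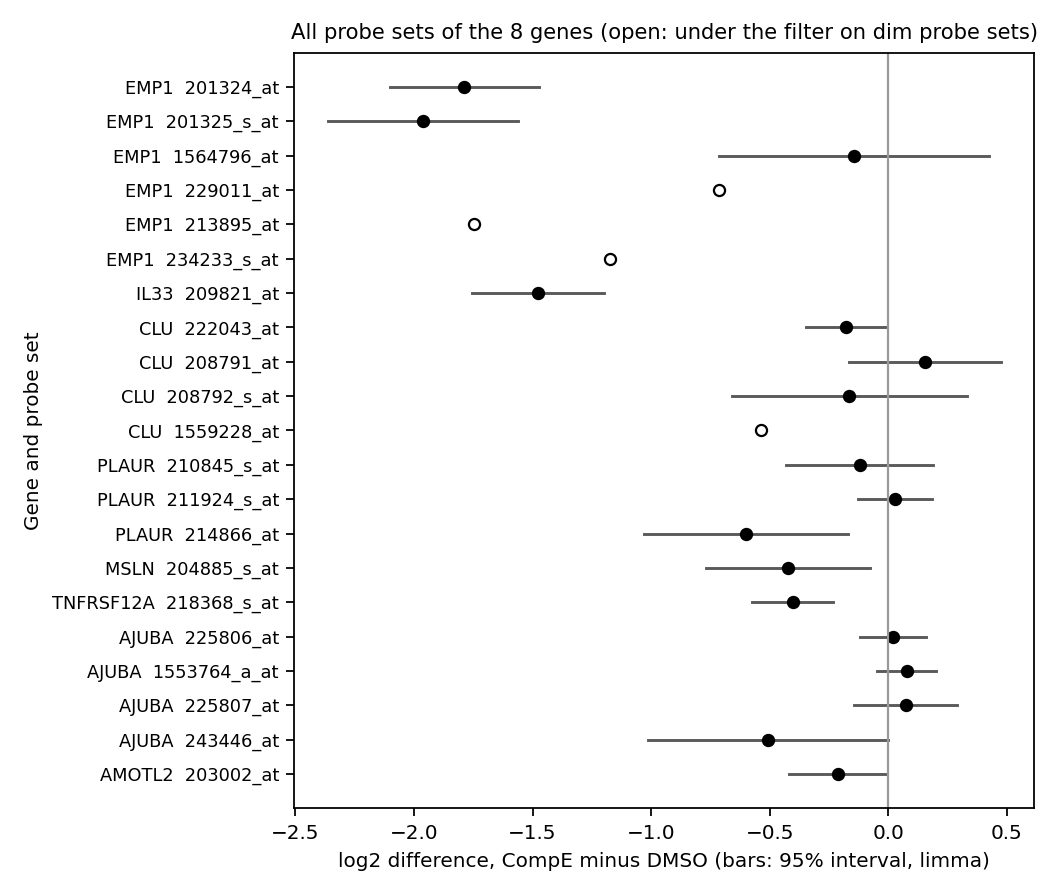
log2 difference, CompE minus DMSO, for the 21 probe sets of the 8 genes, with 95% intervals from limma for the 17 that passed the filter on dim probe sets (filled) and none for the other 4 (open). Only EMP1 and IL33 hold probe sets past the filter with differences below -1; the third tested EMP1 probe set lies at -0.15.

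**Figure D4:**
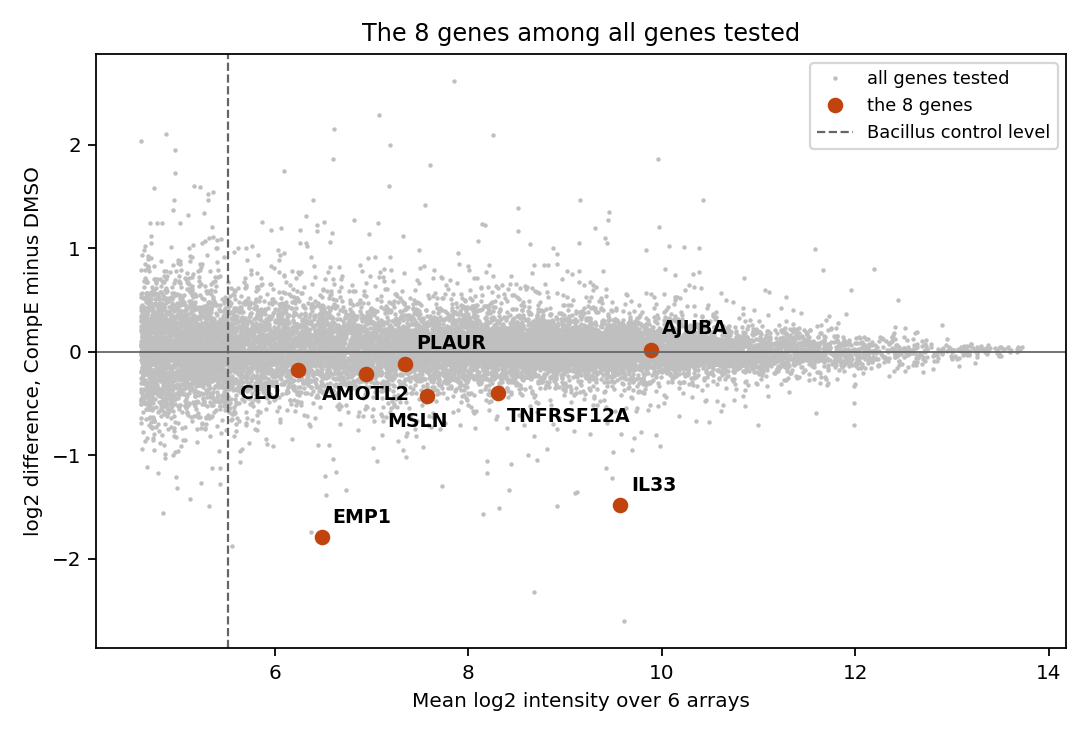
log2 difference, CompE minus DMSO, against mean log2 intensity over the 6 arrays for the 14308 genes tested (grey), with the 8 genes in red and the Bacillus control level of 5.51 as a dashed line. EMP1 and IL33 lie at the lower edge of the cloud, and the other 6 genes lie within it.

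Of the relatives of EMP1, EMP2 was clearly expressed and did not pass the threshold. It averaged 1252 ± 43.4 with CompE and 1264 ± 68.5 with DMSO (log2 difference -0.01 ± 0.06 SE, adjusted p = 0.929). Its groups overlapped. EMP3 lay below background on all 6 arrays, with 24.6 ± 9.15 with CompE and 21.9 ± 7.98 with DMSO. PMP22 was not analysed here.

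The genes nearest to EMP1 over the 6 arrays were sought by the root mean square distance between log2 values after each gene's own mean was subtracted. The 5 nearest of 14307 genes were CXCL8 (0.15), ANXA1 (0.16), ADAM19 (0.17), HES1 (0.20) and CDA (0.21), against a median distance of 0.92. CXCL8, a chemokine gene, averaged 166 ± 23.6 with CompE and 493 ± 64.4 with DMSO. CDA, the gene of cytidine deaminase, averaged 57.4 ± 5.16 with CompE and 150.0 ± 21.2 with DMSO. EMP1, CXCL8, ANXA1, ADAM19 and CDA were all highest on the array of DMSO replicate 1, and HES1 on that of DMSO replicate 2. All were lower on each CompE array than on any DMSO array, and ADAM19 was below background on all 3 CompE arrays. IL33 lay at a distance of 0.29, with 11 genes nearer. The 6 arrays form 2 separated groups, and the distance includes the size of the difference between them.

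Among 24 further genes of the fetal-like or regenerative state, 13 were tested and 3 fell: EREG, ANXA1 and HBEGF. None rose, and 10 did not pass. At an unadjusted p under 0.05, 7 of the 13 were lower and 2 higher, beside 9.55% and 15.0% of all genes. Their median log2 difference was -0.19, beside 0.02 over all genes, of which 2.57% were called lower and 4.56% higher. EREG, an EGF receptor ligand, averaged 471 ± 46.3 with CompE and 1095 ± 8.69 with DMSO (log2 difference -1.22 ± 0.08 SE, adjusted p = 0.00194). It read 524, 448 and 440.5 on the CompE arrays and 1104, 1087 and 1095 on the DMSO arrays, which are far apart. Its dimmer probe set gave -0.83 and did not pass. ANXA1, a phospholipid-binding protein of the fetal-like state in mice, averaged 190.5 ± 22.7 with CompE and 543 ± 52.7 with DMSO (log2 difference -1.51 ± 0.12 SE, adjusted p = 0.00283). HBEGF, another EGF receptor ligand, averaged 78.7 ± 3.41 with CompE and 104 ± 9.20 with DMSO (log2 difference -0.40 ± 0.08 SE, adjusted p = 0.0406). EREG and ANXA1 kept their calls whichever array was left out, and HBEGF lost its call in each case (highest adjusted p 0.115). The probe sets of HBEGF also disagreed, from -0.82 to 0.11 over 4. The other 7 measured genes, among them L1CAM, MMP7, PTGS2 and GJA1, lay below background on all 6 arrays, and 4 listed genes were not analysed here.

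Of 21 further YAP and TAZ target genes, 14 were tested, 3 fell, 0 rose and 11 did not pass. At an unadjusted p under 0.05, 5 of the 14 were lower and 0 higher, beside 9.55% and 15.0% of all genes. The lists share genes: F3 is also among the regenerative genes above, and PTPN14 and LATS2 are also among the Hippo components below. F3 and PTPN14 are counted as lower at the unadjusted p in each list that holds them. Called lower were 2.57% of all genes and called higher 4.56%. The median log2 difference was -0.06, beside 0.02 over all genes. GADD45B, a stress-response gene, averaged 119.6 ± 7.35 with CompE and 179 ± 14.2 with DMSO (log2 difference -0.58 ± 0.08 SE, adjusted p = 0.0164). Its other probe sets past the filter gave -0.89, which passed, and -0.35 and -0.20, which did not. MYOF, the membrane-repair protein myoferlin, averaged 369 ± 40.7 with CompE and 600.3 ± 63.6 with DMSO (log2 difference -0.70 ± 0.11 SE, adjusted p = 0.0257). Its second probe set past the filter gave -0.72. CCN2, a matricellular protein and a standard readout of YAP, was dim. It lay below background on all 3 CompE arrays and on 1 DMSO array, and was at least 1.10-fold lower (adjusted p = 0.0194). CCN1 and ANKRD1, other standard readouts, were below background on all 6 arrays. With 1 array left out, MYOF lost its call in all 6 cases, GADD45B in 3 (CompE replicates 1 and 2, DMSO replicate 2) and CCN2 in 4 (CompE replicates 1 and 3, DMSO replicates 2 and 3).

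Most Hippo pathway components did not pass the threshold. Of 27 further components, 23 were tested, 2 rose, 1 fell and 20 did not pass. At an unadjusted p under 0.05, 7 of the 23 were higher and 4 lower, beside 15.0% and 9.55% of all genes. Over all genes, 4.56% were called higher and 2.57% lower. The median log2 difference was -0.01, beside 0.02 over all genes. The 3 calls fell to between 0 and 1 with 1 array left out. WWTR1, which encodes TAZ, averaged 68.6 ± 6.37 with CompE and 107 ± 6.57 with DMSO (log2 difference -0.64 ± 0.09 SE, adjusted p = 0.0157). Its 2 dimmer probe sets gave -0.22 and -0.25 and did not pass. YAP1 averaged 1355 ± 21.8 with CompE and 1354 ± 46.4 with DMSO (log2 difference 0.0021 ± 0.05 SE, adjusted p = 0.986). TEAD2, a DNA-binding partner of both, averaged 123 ± 2.88 with CompE and 78.5 ± 10.8 with DMSO (log2 difference 0.66 ± 0.10 SE, adjusted p = 0.0238). Its dimmer probe sets past the filter gave 0.19 and 0.81 and did not pass. TEAD1 averaged 786 ± 51.2 with CompE and 566 ± 48.7 with DMSO (log2 difference 0.47 ± 0.09 SE, adjusted p = 0.0337), while its 2 dimmer probe sets gave -0.11 and 0.19. With 1 array left out, WWTR1 kept its call only without CompE replicate 2 and TEAD2 only without DMSO replicate 1, and TEAD1 lost its call in all 6 cases (highest adjusted p 0.116).

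The close relatives of the adaptors showed no difference past the threshold. LIMD1, a LIM-domain relative of AJUBA, averaged 859.6 ± 108 with CompE and 861 ± 52.4 with DMSO (adjusted p = 0.975), on a probe set whose name marks possible cross-hybridisation. WTIP, the other relative, lay below background on all 6 arrays. AMOTL1, a relative of AMOTL2, averaged 89.1 ± 6.69 with CompE and 87.2 ± 8.04 with DMSO (adjusted p = 0.869), and AMOT lay below background on all 6 arrays.

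Among 21 ligands, receptors and partners of the 8 gene products, 14 were tested, 1 rose, 0 fell and 13 did not pass. At an unadjusted p under 0.05, 1 of the 14 was higher and 0 lower, beside 15.0% and 9.55% of all genes. The share called, 1 of 14, was near the 7.14% called in either direction over all genes, and is not a result about these partners. The called gene, TRAF5, a signalling adaptor of TNF receptors, averaged 517 ± 22.1 with CompE and 422 ± 12.7 with DMSO (log2 difference 0.29 ± 0.06 SE, adjusted p = 0.0364). It lost its call in all 6 cases with 1 array left out, with adjusted p-values of up to 0.117 in limma. PLAU, which encodes urokinase, averaged 39.5 ± 18.9 with CompE and 41.4 ± 24.4 with DMSO, around background (adjusted p = 0.982). The median log2 difference of these genes was -0.06.

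**Figure D5:**
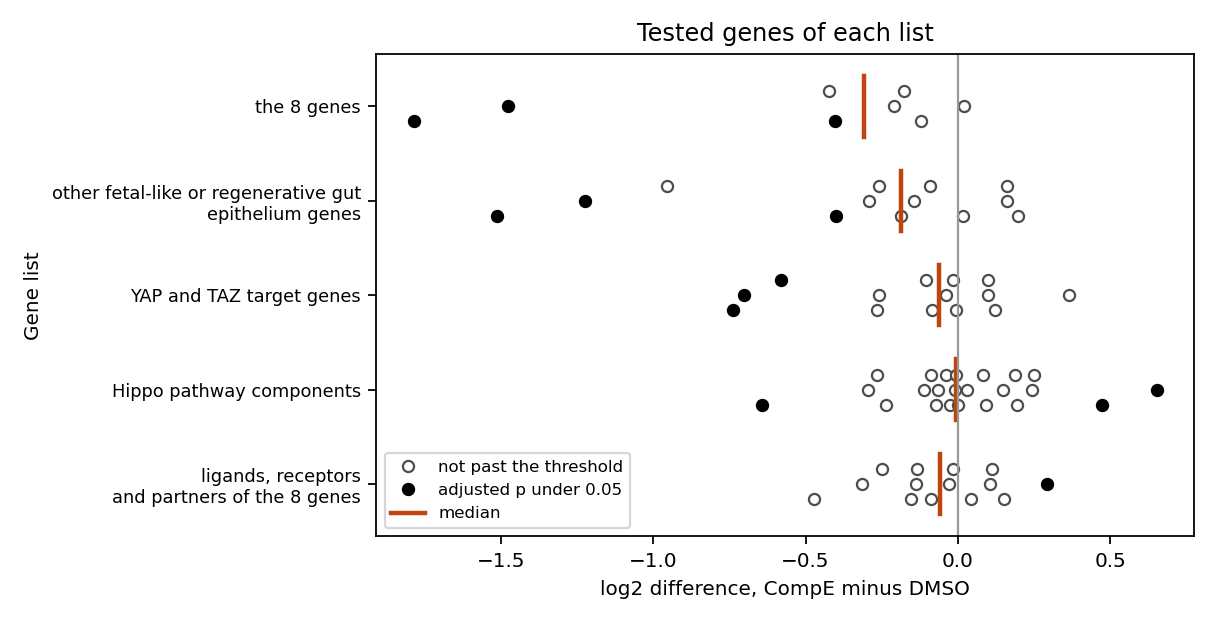
log2 difference, CompE minus DMSO, of the tested genes among the 8 genes and in each of 4 further lists; filled points passed an adjusted p of 0.05 in the fit over all genes, open points did not, and red lines are medians. The medians are -0.31 for the 8 genes, -0.19 for the other regenerative genes and between -0.06 and -0.01 for the remaining lists.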

How the data were processed

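Triplicate cultures were labelled from the 3' end of RNA and hybridized, and the authors evened out differences between arrays in dChip, both per the labels' protocols and the design text. What they deposited are linear intensities, 1 for each probe set. No version of dChip and no statement on mismatch probes was found in the sources used here. Values under 1 were raised to 1 before taking log2, with no further normalization. Control probe sets (62) and the dimmest 40% by mean log2 value (below an intensity of 24.4) were left out. Gene symbols came from the platform annotation of the array and a RefSeq gene table: 41097 probe sets had 1 gene, 1800 several and 11721 none listed. The brightest probe set stood for its gene in the test (14308 genes), and the fit was repeated over 26962 probe sets. CompE was compared with DMSO by limma 3.58.1 (R 4.3.3, two-sided, lmFit then eBayes) over the 6 arrays. Benjamini-Hochberg adjustment ran over all genes, with a threshold of 0.05. The number of arrays limits the precision (median SE of a log2 difference 0.08), and p-values measure the spread between cultures of 1 line. Fold changes can understate the change of dim genes. Where no array of the dimmer group exceeded the Bacillus controls, the fold is a lower bound: the brighter group's mean against their level. The fit was tested on simulated data with independent noise and added differences of 2-fold or more, which does not cover smaller differences. The 8 genes, the gene lists, tests and alternatives were chosen with earlier results of these data known. Named were the 8 genes, their family members, up to 4 called genes of each list (or the 1 with the smallest p), the 5 genes nearest to EMP1, and HES1 and ATOH1; any other gene was named after its values were seen. The alternatives were 2 other filters, a floor of 16, 3 scalings, 2 ways of combining probe sets and another variance prior. Others were a replicate block, a subset of least variable probe sets, and leaving out each array. That subset held 10896 probe sets, the number the authors selected. The authors' rule was not found in the sources used here, so the probe sets with the lowest within-group SD were taken.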

Additional observations from a re-analysis of the deposited data

How the results depend on the processing

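EMP1 stayed lower and past the threshold in all 15 alternatives that gave it a value, with log2 differences of -1.93 to -1.30 (-1.86 to -1.66 with 1 array left out), and IL33 in 14 of 15 (-1.62 to -1.38; -1.55 to -1.38). The 10896 least variable probe sets hold neither gene, nor MSLN or AMOTL2. TNFRSF12A lay between -0.55 and -0.37 and passed in 8 of 16. With 1 array left out its difference was -0.45 to -0.37, that of CLU -0.23 to -0.15, PLAUR -0.21 to 0.01, MSLN -0.55 to -0.31, AJUBA -0.0021 to 0.04 and AMOTL2 -0.26 to -0.15.

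Scaling mattered for small differences. Centring each array on its 18 hybridisation control probe sets moved the median of all genes to -0.12 and the share of rises among called genes to 18.0%, against 64.0% as reported (340 higher and 1552 lower, 1892 in all). It gave CLU -0.32, TNFRSF12A -0.55, AJUBA -0.12 (a change of sign) and AMOTL2 -0.35. The 8 genes then had 5 calls and the other regenerative genes 6, all lower, and the Hippo components 6 (2 higher, 4 lower). TRAF5 lost its call, and TEAD1 and TEAD2 stayed higher. Averaging the probe sets of a gene gave EMP1 -1.30, CLU -0.062 and AJUBA -0.084, and 1 call among the Hippo components. Other scalings gave 5 Hippo calls with quantile normalization and 5 with median centring.

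The count of called genes (1021) was 363 with no filter, 1751 with the stricter filter, 2254 with an intensity trend, 2930 among the least variable probe sets, and 248 to 524 with 1 array left out. With no filter there were 0 YAP and TAZ targets, 1 Hippo component and 0 partners called. With the stricter filter 6 other regenerative genes (1 higher, 5 lower) and 8 Hippo components (4 higher, 4 lower) were called. With the intensity trend 6 other regenerative genes (1 higher, 5 lower), 9 Hippo components (5 higher, 4 lower) and 2 partners (2 higher) were called. The least variable probe sets gave 3 other regenerative genes (2 higher, 1 lower) and 3 YAP and TAZ targets (1 higher, 2 lower). They also gave 7 Hippo components (4 higher, 3 lower) and 3 partners (1 higher, 2 lower). Testing probe sets in place of genes gave 0 partners. With 1 array left out, calls were 2 among the 8 genes, 2 among the other regenerative genes, 0 to 2 among YAP and TAZ targets, 0 to 1 among Hippo components and 0 among partners. The least variable probe sets were picked by the within-group SD, the spread that limma then tests against. Their counts therefore cannot be set beside the others. The cause of the other changes was not tested. A floor of 16 took the EMP1 probe sets 213895_at and 234233_s_at, both below background, to -0.07 and -0.02.

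No pairing of the arrays by replicate number was seen. Deviations from the group means correlated at 0.02, -0.10 and -0.02 across genes for replicates 1, 2 and 3, and 1 of 6 arrays correlated best with its own number. The labels do not say whether cultures of the same number were run together, and 3 arrays a group cannot settle it. With the replicate block, 102 genes were called, 1 of them among the 8 genes (EMP1). Among YAP and TAZ targets, Hippo components and partners there were 0 calls each with the block.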
